A study of Homo sapiens with 6 samples.

Results

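The insulin-like growth factor (IGF) system was examined through 10 genes: the ligands IGF1 and IGF2, the receptor IGF1R, and the binding proteins IGFBP1 to IGFBP7. The array files carry no gene symbols, since their gene name field repeats the probe name on all 175812 spots that are not controls, so probes were assigned to genes by their sequence. A probe was taken as a member when its 60 bases matched a sense transcript of 1 of the 10 genes exactly in GENCODE release 44 (hg38). This gave 14 probes for all 10 genes, out of 125601 probes that are not controls and 43260 genes with a matched probe. IGF1, IGF2, IGF1R and IGFBP3 had 2 probes each, and the other 6 genes had 1 each.

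IGF1 and IGF2 are secreted peptides that signal for growth and survival through IGF1R, a tyrosine kinase of the cell surface that works through the insulin receptor substrates, PI3K and AKT. The binding proteins hold the ligands outside the cell, extend their life or keep them from the receptor, and some act on cells without a ligand. IGFBP3 is known from other cells as a gene induced by the vitamin D receptor, and IGFBP6 as a binding protein that prefers IGF2.

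SKOV3 cells, a long-used line from a human ovarian carcinoma, were given 1α,25(OH)2D3, the active hormone made from vitamin D, or its solvent. The label VD marks 3 arrays, replicates 1 to 3, of cells given 1α,25(OH)2D3 at 100 nmol/L for 72 h, and the label vehicle marks 3 arrays, also numbered 1 to 3, of cells given ethanol alone for the same time. The labels did not say whether replicates were separate cultures, so p-values measure only the spread between these arrays. The sample titles read SKOV-1, the cell line field SKOV-3 and the growth protocol SKOV-13, and the study's spelling is used here. No array of untouched cells or of another dose or time was examined. Values are the authors' quantile-normalized log2 values, given in the order of replicates 1, 2 and 3. Levels of different probes were not compared, because probes differ in brightness for the same amount of RNA.

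CYP24A1, the enzyme that breaks down 1α,25(OH)2D3 and a direct target of the vitamin D receptor, served as a check of the labels and went against them. Its probe A_23_P28815 read 2.23, 13.84 and 3.30 on the arrays labelled VD and 14.18, 4.75 and 14.34 on those labelled vehicle. The probe was therefore high on VD replicate 2 and on vehicle replicates 1 and 3, and low on the other 3 arrays. A second probe, A_33_P3369401, divided the arrays in the same way, with 3.88, 14.64 and 4.46 against 15.16, 8.24 and 15.25. The labels were kept throughout, and every direction below is that of the arrays as labelled. Each probe is also described by whether an array was high or low in A_23_P28815, with no mean, fold or test on that division.

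Between 49.1% and 57.5% of an array's probes carried the scanner's flag for signal well above background, and rank correlations between arrays lay between 0.953 and 0.978. Slide 1 held VD replicates 1 and 2, and slide 2 held the other 4 arrays. Of 9 epithelial ovarian markers, WT1 had no matched probe and the other 8, among them KRT7, EPCAM, PAX8 and ERBB2, had a probe well above background on all 6 arrays. Of the 4 fibroblast markers, DCN and PDGFRA were above background on no array, LUM on 1, and COL1A1 had 1 probe above background on all 6. At least 1 probe of each of the endothelial markers PECAM1, VWF and CDH5 and of the leukocyte markers PTPRC, CD14 and CD3E was above background on all 6 arrays. The leukocyte marker LYZ had no matched probe, and some PTPRC and VWF probes were above background on no array. In all, 5 of 8 endothelial and 4 of 10 leukocyte probes were above background on all 6 arrays, beside 21 of 25 epithelial and 1 of 14 fibroblast probes. Summed on the linear scale, the leukocyte probes gave 717 to 873 on the arrays labelled VD and 726 to 794 on those labelled vehicle, the endothelial probes gave 776 to 830 and 807 to 951, and the fibroblast probes gave 279 to 375 and 308 to 401. The epithelial probes gave 131766 to 162343 and 152104 to 158116. All these ranges overlapped, and no marker probe passed the fold and p thresholds used below. Of 22 tested epithelial probes, 11 were higher and 11 lower with the label VD, and 2 had an unadjusted p under 0.05 in limma. These were 1 of KRT19 (log2 fold change -0.75) and 1 of MUC16 (-0.71), whose labels did not overlap, while another MUC16 probe was at 0.10. The samples were cultures of a single cell line, SKOV3, and the source of the leukocyte, endothelial and fibroblast marker signal was not tested. In RNA from whole cultures, fewer cells of a kind and less RNA per cell cannot be told apart.

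The probe sequences show what each value can report. Of the 14 probes, 11 matched a protein-coding transcript and 3 matched only a transcript without a defined coding sequence. In all, 7 lay in a 3′ UTR, 3 lay wholly within coding sequence, and 1 IGF1 probe covered 38 coding bases and the start of the UTR in exon 4. The IGF2 and IGFBP6 probes within coding sequence are printed, with the 2 probes that match only a retained-intron transcript. No base of these 2, called intron probes below, lies in an exon of the canonical transcript. The sequences show which transcripts of these genes a value can report. They are written 5′ to 3′ in the sense of the transcript, and where a probe crosses a splice junction the capitals mark the bases of the later exon.

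IGF2, exons 3 and 4, chr11:2133172-2133524, minus strand: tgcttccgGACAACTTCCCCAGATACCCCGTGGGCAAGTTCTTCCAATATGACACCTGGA
IGFBP6, exon 3, chr12:53101069-53101128, plus strand: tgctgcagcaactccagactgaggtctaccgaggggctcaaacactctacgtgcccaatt
IGF2, retained intron, chr11:2149048-2149107, minus strand: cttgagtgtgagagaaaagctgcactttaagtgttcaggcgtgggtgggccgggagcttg
IGFBP3, retained intron, chr7:45915173-45915232, minus strand: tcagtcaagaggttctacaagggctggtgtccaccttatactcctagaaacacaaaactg

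The coding IGF2 probe joins exon 3 to exon 4 after 8 bases, so it needs a spliced RNA for a full match. It also matches INS-IGF2, a read-through gene with the insulin gene, and 1 further gene model, ENSG00000284779, so its value is uncertain between these. The IGFBP6 probe matches 5 transcripts of IGFBP6 and no other gene. The second IGF1R probe matches the junction of exons 1 and 2 of a short transcript whose coding sequence is not defined, and 38 of its 60 bases lie in exons of the canonical transcript. The 3′ UTR probes lie in the last exon of their genes, that of IGFBP3 in exon 5 (chr7:45913009-45913068), that of IGFBP1 in exon 4 (chr7:45893367-45893426), that of IGFBP7 in exon 5 (chr4:57031257-57031316) and that of IGF1R in exon 21 (chr15:98964137-98964196).

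In all, 13 of the 14 probes exceeded background clearly on at least 1 array, and 8 of them, of 6 genes, did so on all 6 arrays. These 6 genes were IGF1R, IGFBP1, IGFBP2, IGFBP3, IGFBP6 and IGFBP7. A probe was tested when each of the 3 arrays of 1 label, or of both, was well above background. This filter kept 9 member probes of 7 genes, together with 63337 probes in all, and left out 5, which were both IGF1 probes, the IGF2 intron probe, IGFBP4 and IGFBP5.

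**Figure D1:**
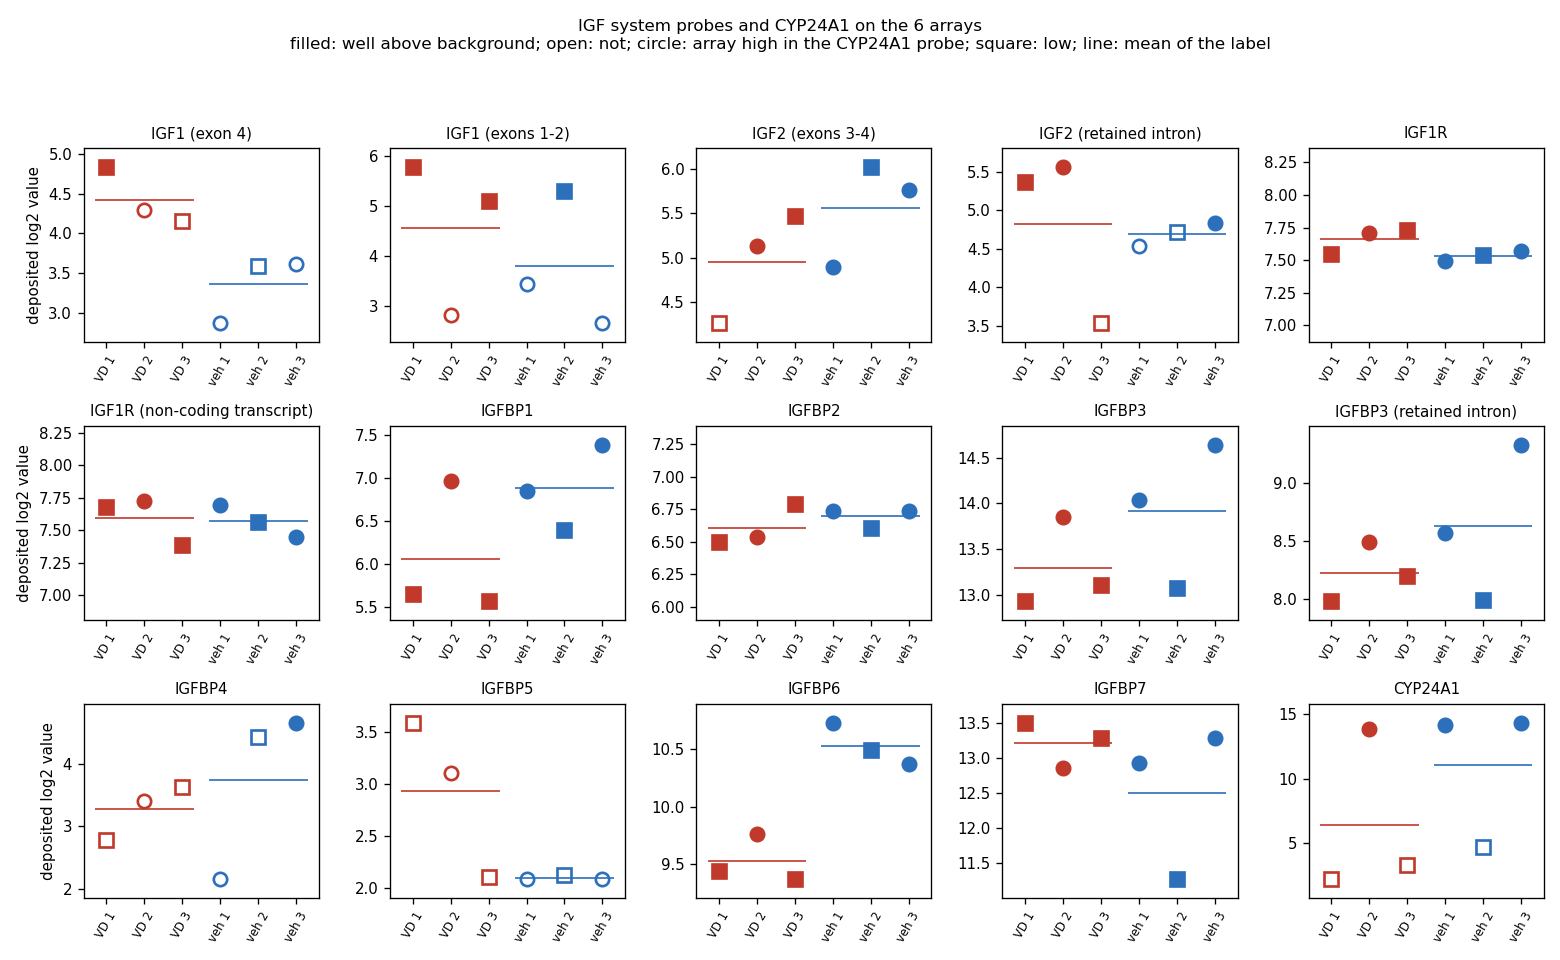
Deposited log2 values (vertical axes, each with its own range) of the 14 IGF system probes and of the CYP24A1 probe A_23_P28815 on the 6 arrays (horizontal axes: VD 1 to VD 3, given 1α,25(OH)2D3 by their label, in red, and veh 1 to veh 3, labelled vehicle, in blue). Filled symbols are well above background, circles mark the arrays high in CYP24A1 and lines are label means. IGFBP6 is the 1 tested probe whose labels do not overlap, and IGFBP1 and both IGFBP3 probes are higher on each circle than on each square.

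The ligands gave faint signals. The IGF1 probe of exon 4 read 4.83, 4.29 and 4.15 on the arrays labelled VD and 2.87, 3.59 and 3.62 on those labelled vehicle. The labels did not overlap, but the probe was well above background only on VD replicate 1, so it was not tested.

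The IGF1 probe of exons 1 and 2 read 5.77, 2.82 and 5.09 with the label VD and 3.44, 5.29 and 2.65 with the label vehicle. Its signal exceeded background on VD replicates 1 and 3 and vehicle replicate 2, and the labels overlapped. These 3 arrays were the ones low in the CYP24A1 probe. This probe was not tested either.

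For IGF2, the probe of exons 3 and 4 read 4.26, 5.13 and 5.47 with the label VD and 4.90, 6.02 and 5.76 with the label vehicle. It was well above background on all arrays but VD replicate 1, where its value was the lowest of the 6. The labels overlapped, and the log2 fold change of -0.61 (standard error 0.384) had an adjusted p of 0.709 in limma with Benjamini-Hochberg adjustment. The IGF2 intron probe read 5.37, 5.56 and 3.53 against 4.53, 4.72 and 4.83, was above background on 3 arrays of both labels, and was not tested.

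IGF1R varied least among the members above background on all 6 arrays. Its 3′ UTR probe read 7.55, 7.71 and 7.73 on the arrays labelled VD and 7.50, 7.54 and 7.57 on those labelled vehicle, so that the highest array exceeded the lowest by 1.18-fold. Its SD over the 6 arrays was 0.0984 on the log2 scale, and 4.40% of the probes above background on all 6 arrays had a smaller one. The log2 fold change was 0.13 with a 95% interval of -0.20 to 0.46 and an adjusted p of 0.811 in limma with Benjamini-Hochberg adjustment. The interval did not reach a 2-fold change in either direction.

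The probe of the short IGF1R transcript read 7.68, 7.72 and 7.39 against 7.69, 7.57 and 7.44, with a log2 fold change of 0.03 and a 95% interval of -0.35 to 0.41. The label groups overlapped on both receptor probes, and neither divided the arrays as CYP24A1 did. The direction of the short transcript's estimate was not settled, at -0.18 on the 4 arrays of slide 2 and -0.01 to -0.032 without VD replicate 1, VD replicate 2 or vehicle replicate 3.

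Among the binding proteins, IGFBP6 was the 1 member past 2-fold at an unadjusted p under 0.05, the thresholds used in the study's results. Its coding probe read 9.44, 9.76 and 9.37 on the arrays labelled VD and 10.73, 10.49 and 10.37 on those labelled vehicle. All 3 arrays labelled VD were lower than all 3 labelled vehicle, with means of 9.52 ± 0.21 and 10.53 ± 0.18 (SD, n = 3). The log2 fold change was -1.01 (standard error 0.179, 95% interval -1.42 to -0.59), which is 2.01-fold lower and just past the fold threshold. The adjusted p was 0.701 in limma with Benjamini-Hochberg adjustment over all tested probes, so IGFBP6 did not pass an adjusted threshold.

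These counts stood beside the whole array as follows. The fold and unadjusted p thresholds called 1 of the 9 tested member probes and 0.745% of all tested probes (472 of 63337), with 0.259% lower and 0.486% higher on the arrays labelled VD. The unadjusted p alone called 1 of 9 member probes and 6.77% of all, and 18 probes of the array had a smaller p than IGFBP6. The labels did not overlap for 1 of 9 member probes, lower with the label VD, against 12.2% of all tested probes in either direction and 5.18% in that direction. No member and 0.0% of all probes passed an adjusted p under 0.05 in limma, with 4286 probes at an unadjusted p under 0.05 and a smallest adjusted p of 0.701. The median log2 fold change was -0.41 over the 9 member probes and -0.0037 over all tested probes, and 6 of 9 member probes and 50.6% of all were below 0.

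**Figure D2:**
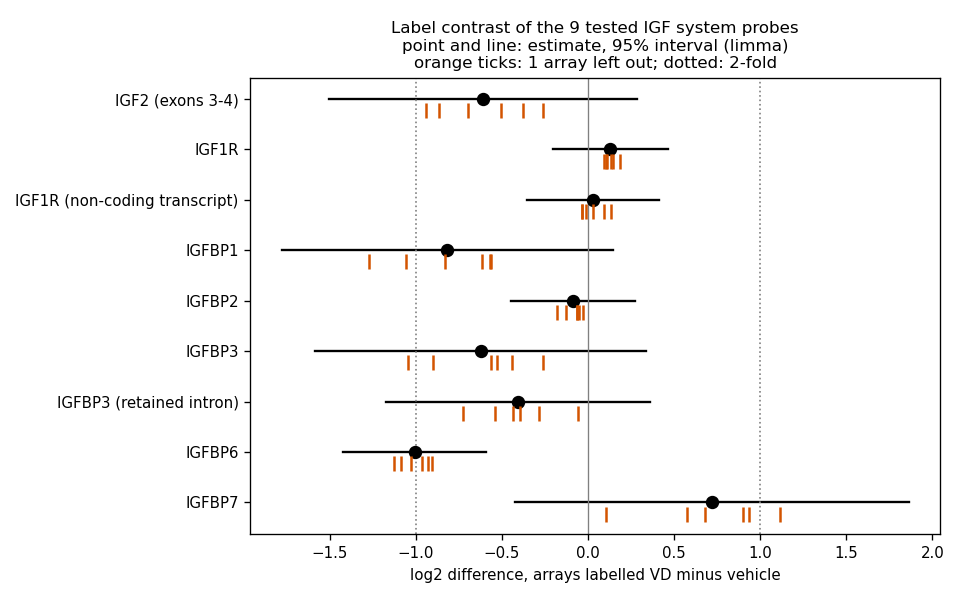
Log2 difference between the arrays labelled VD and vehicle (horizontal axis) for the 9 tested IGF system probes (vertical axis). Points and lines are limma estimates with 95% intervals, orange ticks the estimates with 1 array left out, and dotted lines 2-fold. Only the IGFBP6 interval, from -1.42 to -0.59, lies on 1 side of 0, and the estimate for IGFBP7 moves to 0.11 without vehicle replicate 2.

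On slide 2 alone, where 1 array labelled VD stood against 3 labelled vehicle, the log2 fold change of IGFBP6 was -1.16, and with each array left out in turn it stayed between -1.13 and -0.91. It was past 2-fold without VD replicate 2 (-1.13) and without vehicle replicate 2 (-1.03) or 3 (-1.09), and short of it without VD replicate 1 (-0.97) or 3 (-0.93) or vehicle replicate 1 (-0.91). Normexp background correction gave -0.89, also under 2-fold. By the CYP24A1 probe the IGFBP6 values overlapped. Between the 2 arrays whose CYP24A1 level goes with their label, replicate 2 of each, the IGFBP6 difference was -0.73 on the log2 scale. This value has no test and was chosen after the data were seen. Its direction was fixed in advance, since each array labelled VD was lower than each array labelled vehicle. It therefore adds nothing to the label contrast.

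IGFBP3, the main IGF carrier of blood plasma, read 12.93, 13.85 and 13.10 on the arrays labelled VD and 14.04, 13.08 and 14.64 on those labelled vehicle. The labels overlapped, and the log2 fold change was -0.62 (standard error 0.412, adjusted p of 0.714 in limma with Benjamini-Hochberg adjustment). The study reports IGFBP3 as increased after treatment of these cells, opposite in direction to the difference between the label means here. Without vehicle replicate 2 the estimate was -1.04, past both unadjusted thresholds. The intron probe of IGFBP3, printed above, read 7.98, 8.49 and 8.20 against 8.57, 7.99 and 9.32, with a log2 fold change of -0.41 (standard error 0.329). The 2 probes, which lie in different parts of the gene, were highest on the same 3 arrays, in the same order: vehicle replicate 3, vehicle replicate 1 and VD replicate 2.

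These were also the 3 arrays high in the CYP24A1 probe. On them the 3′ UTR probe lay between 13.85 and 14.64 and on the other 3 between 12.93 and 13.10, with 0.74 on the log2 scale between the nearest arrays. The intron probe lay between 8.49 and 9.32 and between 7.98 and 8.20, with 0.29 between the nearest. Between replicate 2 of each label, the arrays that CYP24A1 places as their labels do, the 3′ UTR probe of IGFBP3 was higher by 0.77 with the label VD. This value has no test, was chosen after the data were seen, and is opposite in direction to the difference between the label means. Its direction follows from the division just given, since VD replicate 2 is a high array and vehicle replicate 2 a low one. It therefore adds nothing to that division.

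IGFBP1, a binding protein of liver and decidua that insulin represses, read 5.65, 6.97 and 5.57 with the label VD and 6.85, 6.40 and 7.38 with the label vehicle. The labels overlapped at VD replicate 2, which exceeded 2 of the 3 vehicle arrays. The log2 fold change was -0.82 (standard error 0.413, adjusted p of 0.701 in limma with Benjamini-Hochberg adjustment). It was -1.27 without VD replicate 2 and -1.06 without vehicle replicate 2, both past the 2 unadjusted thresholds, and -1.31 on slide 2, where a single VD array stood against 3 vehicle arrays. By the CYP24A1 probe, IGFBP1 lay between 6.85 and 7.38 on the high arrays and between 5.57 and 6.40 on the low ones. IGFBP1 and IGFBP3 are neighbours on chromosome 7, with 18584 bases between them.

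**Figure D3:**
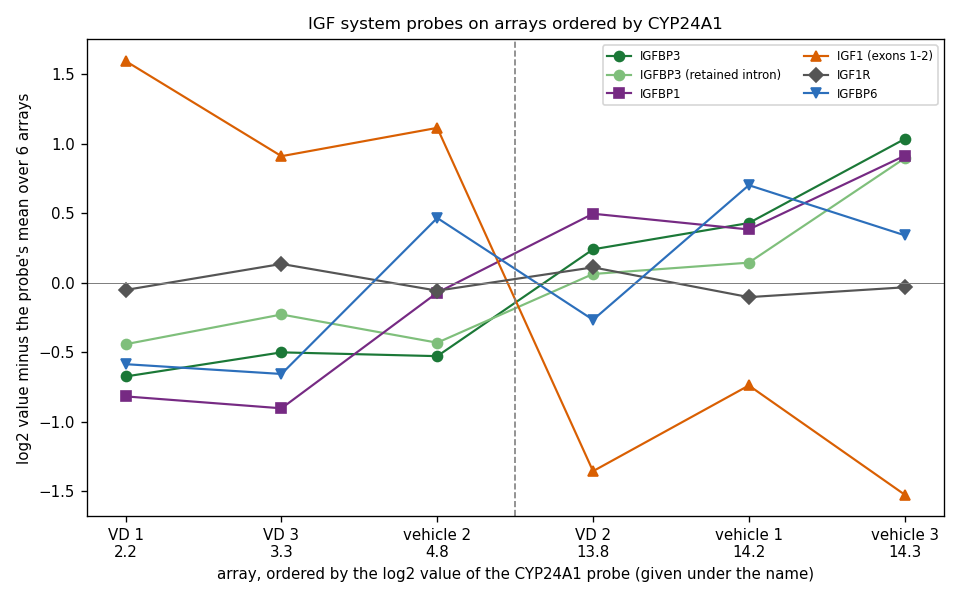
Log2 value minus the probe's own mean over the 6 arrays (vertical axis) for 6 IGF system probes on the arrays (horizontal axis), ordered by the CYP24A1 probe, whose log2 value stands under each name. The dashed line parts the 3 low from the 3 high arrays, and both IGFBP3 probes and IGFBP1 are higher, and the IGF1 probe of exons 1 and 2 lower, on each array to its right, while IGFBP6 and IGF1R overlap. No test was made on this order.

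Over the 9 tested member probes, 3 (IGFBP1 and both IGFBP3 probes) were higher on each array high in CYP24A1 than on each low one, which held for 3.29% of all tested probes. None was lower on each high array, against 2.88% of all. The untested IGF1 probe of exons 1 and 2, well above background only on the 3 low arrays, was lower on each high array. It is not counted with the tested probes, since its values on the high arrays were not well above background. Among all 14 member probes, the number that divided did not change on the scanner signals or after normexp correction. These alternatives were added after the data were seen, and no share over all probes was computed for them. The 2 IGFBP3 probes report 1 gene, so they are not independent observations. Of the markers, 1 KRT8 probe was also higher on each array high in CYP24A1, and 2 PAX8 probes and the CD14 probe were lower. These were 3 of 22 tested epithelial probes (13.6%) and 1 of 4 tested leukocyte probes, beside 6.17% of all tested probes in either direction. No tested fibroblast or endothelial probe divided in this way, and the part of the markers in the member values was not tested.

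The 250 bases before the RefSeq start of IGFBP3 (GRCh38.p14, chr7:45921273-45921522, minus strand) are shown because both IGFBP3 probes were higher on the arrays high in CYP24A1, a target of the vitamin D receptor. Both strands were searched for 4 forms of this receptor's half-site, namely AGGTCA, also AGTTCA, then GGGTCA, and last GGTTCA, and capitals mark the 1 match, the reverse complement of GGGTCA.

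IGFBP3, before the start: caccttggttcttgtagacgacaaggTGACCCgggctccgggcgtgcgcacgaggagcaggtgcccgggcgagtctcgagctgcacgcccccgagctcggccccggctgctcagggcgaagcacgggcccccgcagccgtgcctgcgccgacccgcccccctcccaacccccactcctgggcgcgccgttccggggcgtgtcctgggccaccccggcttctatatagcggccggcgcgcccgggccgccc

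Of the 10 windows found for 7 of the member genes, 4 hold such a half-site, 1 each of IGFBP2, IGFBP3, IGFBP4 and IGF1. A half-site occurs in 33.8% of the 35116 RefSeq windows of this length, so a single match is common. A direct repeat of 2 half-sites with 3 bases between them, the form that the vitamin D receptor is known to prefer, occurs in 0.0655% of windows and in none of the member windows. No match says only that these letters are not in this window.

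IGFBP7, a secreted protein that binds IGFs weakly and insulin and matrix as well, varied most among the members above background on all 6 arrays. Its probe read 13.50, 12.86 and 13.29 on the arrays labelled VD and 12.93, 11.28 and 13.29 on those labelled vehicle. Vehicle replicate 2 was far below the other 5 arrays. The probe has 10 spots per array, and the SD between spots was 0.038 to 0.084 on the log2 scale, so the low value was not that of 1 spot. Its log2 fold change was 0.72 with a standard error of 0.491 and an adjusted p of 0.718 in limma with Benjamini-Hochberg adjustment, and 0.11 without vehicle replicate 2. Its SD over the 6 arrays was 0.812, above that of 99.1% of the probes above background on all 6 arrays.

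IGFBP2, an abundant binding protein of plasma, read 6.50, 6.54 and 6.79 against 6.74, 6.61 and 6.74. It lay in a narrow band like IGF1R, with an SD of 0.122 over the 6 arrays and a smaller one for 9.41% of probes. The log2 fold change of -0.09 had a 95% interval of -0.45 to 0.28, and its direction turned to 0.10 on slide 2 alone.

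IGFBP4, which inhibits IGF action until the protease PAPPA cuts it, read 2.77, 3.40 and 3.62 against 2.16, 4.41 and 4.65 and was well above background only on vehicle replicate 3. IGFBP5, a binding protein found in bone and matrix and the neighbour of IGFBP2 on chromosome 2 at a distance of 7668 bases, read 3.58, 3.10 and 2.11 against 2.09, 2.12 and 2.09 and was well above background on no array. Neither was tested, and no fold is given for them.

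The probes with the most similar course over the 6 arrays were sought for the 3 members with the largest SD. The measure was the root mean square difference of log2 values after each probe was centred on its mean. Compared were 39022 or 39023 probes above background on all 6 arrays that matched a gene with a symbol, other than the member. Each gene was listed by its nearest probe. Nearest to IGFBP7 were STARD4 (0.184), RAB3B (0.232) and IL18 (0.233). Nearest to IGFBP3 were BDNF (0.133), PTPRR (0.174) and the long non-coding RNA LINC02021 (0.183), and nearest to IGFBP1 were the pseudogene RPS20P20 (0.121), a probe that matches both CDH6 and DUX4L51 (0.154) and the pseudogene EFL1P1 (0.174). The probes named for IGFBP3 and IGFBP1 were, like these members, higher on each array high in CYP24A1, while those named for IGFBP7 overlapped. This follows from how they were chosen, by nearness to the member on the same arrays, so it is not a separate result. Many other probes lay near too, so a like course over 6 arrays does not single out a partner.

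For the rest of the pathway, 30 other genes were followed, from receptors (INSR, IGF2R) and proteases of binding proteins (PAPPA, PAPPA2) to adaptors, PI3K subunits, AKT kinases, FOXO factors and the IGF2 mRNA-binding proteins. All had a probe, 93 in all, and 65 probes of 23 genes were tested. No probe of the list passed the fold and unadjusted p thresholds in either direction, against 0.745% of all tested probes, and none had an unadjusted p under 0.05. The median log2 fold change was 0.10, with 45 probes above 0 and 20 below, and a range of -0.43 to 1.04. The insulin receptor INSR, the adaptor IRS4 and the protease PAPPA were above background on no array.

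**Figure D4:**
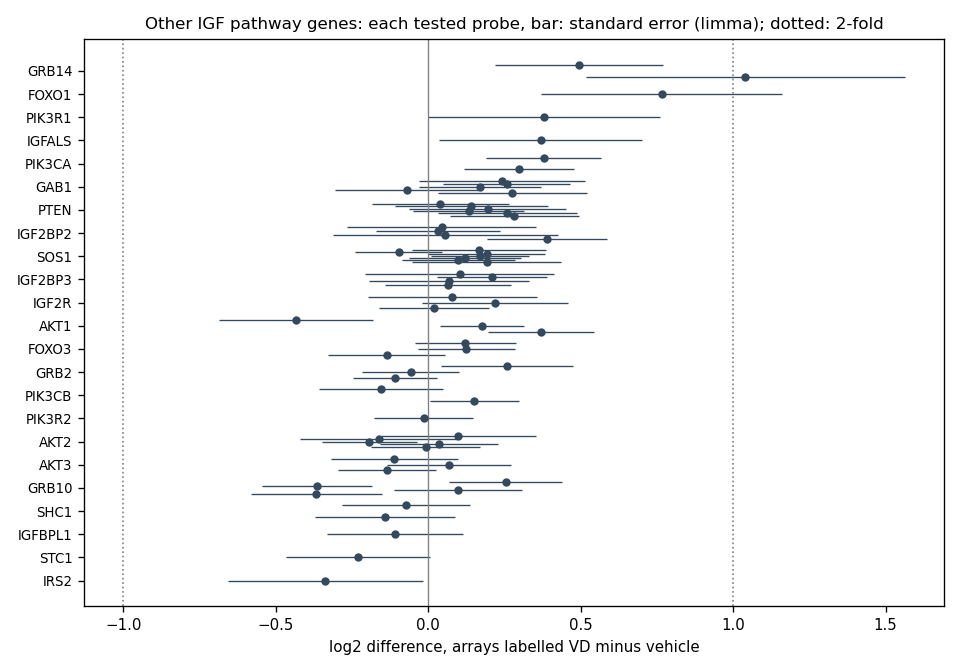
Log2 difference between the arrays labelled VD and vehicle (horizontal axis) for the 65 tested probes of 23 other IGF pathway genes (vertical axis), with the limma standard error as a bar and dotted lines at 2-fold. A single estimate, for GRB14 at 1.04, lies past 2-fold.

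By rule the 5 pathway genes with the largest difference are named. GRB14, an adaptor that binds and restrains the insulin receptor, read 9.01, 8.33 and 9.30 against 8.73, 6.62 and 8.16, and vehicle replicate 2 was its lowest array, as it was for IGFBP7. Its log2 fold change of 1.04 (standard error 0.522) had an adjusted p of 0.701 in limma with Benjamini-Hochberg adjustment. The other tested GRB14 probe was at 0.50. FOXO1, a transcription factor that AKT keeps out of the nucleus, read 11.03, 9.89 and 11.17 against 10.21, 10.27 and 9.31.

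The log2 fold change of FOXO1 was 0.77 (standard error 0.395), and its 3 arrays high in CYP24A1 were its 3 lowest. AKT1 had 1 probe at -0.43 and 2 at 0.37 and 0.18, so its probes disagreed in sign. A probe of IGF2BP2, which binds IGF2 mRNA, was at 0.39, while its other tested probes were at 0.06, 0.03 and 0.04. A probe of PIK3CA, a catalytic subunit of PI3K, was at 0.38, and its other probe was at 0.30. None of them passed an unadjusted p of 0.05. The labels did not overlap for 4 of the 65 tested pathway probes, the 2 higher AKT1 probes, the IGF2BP2 probe and 1 lower GRB2 probe, beside 12.2% of all tested probes. By the CYP24A1 probe, 4 of the 65 tested pathway probes (6.15%) did not overlap, beside 6.17% of all tested probes. These were 1 of IGFBPL1, 2 of the adaptor SHC1 and the FOXO1 probe.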

How the data were processed

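The authors hybridized Cy3-labelled cRNA to 1-colour Agilent arrays and scanned them with Feature Extraction 10.7.1.1, per the file headers. The deposited scanner files hold spot intensity on a linear scale with flags for signal well above background. The deposited log2 table was quantile normalized, since its sorted columns differ by at most 0.00091. The labels name a mirVana kit and the study's methods TRIzol for the extraction. Probes were matched exactly and in sense to GENCODE release 44 transcripts, and 72.1% of them matched. The deposited log2 values were fitted with limma 3.58.1 in R 4.3.3 without covariates, with Benjamini-Hochberg adjustment over 63337 probes. Each label has 3 arrays, which limits precision. Members, the gene lists and the rule for named genes (all members; CYP24A1; the 5 pathway genes with the largest change where under 5 were called; the 3 nearest probes to each of 3 members) were chosen with earlier results of these data known. The alternatives were scanner signals scaled to the 75th percentile, normexp with an offset of 50, other background filters, 1 probe per gene, replicate or slide as a block, slide 2 alone, the methods' t-test (named there for the other experiments, limma for the arrays) and each array left out. The fit was tested on simulated data. The sequence of 1 IGF1 probe is not reported here.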

Additional observations from a re-analysis of the deposited data

How the results depend on the processing

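The member count of 1 past both unadjusted thresholds was 0 after normexp correction, 2 without a background filter (IGFBP6 and the exon 4 probe of IGF1, at 1.07), 2 on slide 2 alone (IGFBP6 and IGFBP1), where the single VD array is assumed to vary like the 3 vehicle arrays, and 0 to 3 with 1 array left out (3 without vehicle replicate 2: IGFBP1, IGFBP3 and IGFBP6). It was 1 under the other settings. The exon 4 probe of IGF1 was well above background only on VD replicate 1, and normexp correction gave it an estimate of 0.21. The adjusted count was 0 under all settings run. IGFBP6 had an adjusted p between 0.133 and 0.999 over its alternatives. The pathway count of 0 was 1 without a filter (PAPPA2), with the replicate block (GRB14) or the slide as a block (IGFALS), 2 on slide 2 alone (FOXO1 and IGFALS), and 0 to 1 with 1 array left out (FOXO1 without VD replicate 2, GRB14 without vehicle replicate 1). Over all tested probes the count of 472 was 34 with normexp, 1612 without a filter, 157 with all 6 arrays above background, 808 with the slide as a block, 797 on slide 2 alone, 139 with the methods' t-test, and 296 to 1181 with 1 array left out. The probe of the short IGF1R transcript reversed to -0.18 and IGFBP2 to 0.10 with the slide as a block and on slide 2 alone, and with 1 array left out the former lay between -0.032 and 0.13. With the replicate block, 1 member probe (IGFBP6, -1.01) was called. Deviations of same-numbered arrays correlated at 0.121, 0.0922 and -0.0254, so the numbers were not taken to pair the arrays. Between replicate 2 of each label, 1 tested member probe (IGFBP7, 1.58) differed by over 2-fold, beside 5.51% of all tested probes. The causes were not tested. Faint signal limits IGF1, IGF2, IGFBP4 and IGFBP5, whose values lie at or near background. The PAPPA2 probe called without a filter was above background on no array.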
